A study of Homo sapiens with 36 samples.

Results

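Amino acid transporter genes of 6 solute carrier families (SLC1A, SLC3A, SLC7A, SLC36A, SLC38A and SLC43A) were followed in UM-SCC-1, an established line of head and neck squamous cell carcinoma. The members are the protein-coding genes of the deposited table of per-library RNA levels whose symbol starts with one of these family names and a number, 29 of 21797 listed genes. They comprise 5 SLC1A, 2 SLC3A, 9 SLC7A, 2 SLC36A, 9 SLC38A and 2 SLC43A symbols, and 28 of them are carriers or heavy chains of carriers. SLC7A6OS entered by its name alone. It is a separate gene on the strand opposite to SLC7A6, with 17321 bases of span shared with it. The choice used symbols and no measured level.

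Members of the SLC7A family that form heterodimers carry the amino acid, while their heavy chains, encoded by SLC3A2 (CD98) and SLC3A1, bring the pair to the plasma membrane. SLC7A5 (LAT1) exchanges large neutral amino acids such as leucine, SLC7A11 (xCT) imports cystine in exchange for glutamate, and SLC1A5 (ASCT2) and SLC38A1 and SLC38A2 (SNAT1 and SNAT2) handle glutamine and other neutral amino acids. Several of these genes are known targets of ATF4, the transcription factor of the amino acid response, and SLC36A1, SLC38A7 and SLC38A9 act at the lysosome.

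The cells had received a retrovirus and were kept in 10 ug/mL blasticidin for 4 days in every group. ALKBH5 shRNA-1 and ALKBH5 shRNA-2 (2 RNA-seq libraries each) were set against their own scramble (3 libraries), and RBM33 shRNA-1 (2) and RBM33 shRNA-2 (3) against a second scramble group (3). ALKBH5 is a demethylase of N6-methyladenosine (m6A) in RNA; RBM33 belongs to the proteins that bind RNA. The sample titles call the constructs shRNA and the protocol calls them siRNA; the titles are followed here. No label says that libraries of a group came from separate infections or dishes, so p-values measure the spread between these libraries, which may be technical. The 15 libraries had between 4493849 and 6733017 reads in listed genes. ALKBH5 RNA was 84.7 and 84.8 CPM in ALKBH5 shRNA-1 and 75.1 and 89.6 CPM in ALKBH5 shRNA-2, against 109, 132 and 123 CPM in its scramble (log2 change -0.53, SE 0.08, limma adjusted p = 9.1e-05). RBM33 RNA was 191 and 204 CPM in RBM33 shRNA-1 and 208, 199 and 214 CPM in RBM33 shRNA-2, against 217, 207 and 227 CPM in its scramble (log2 change -0.10, SE 0.06, limma adjusted p = 0.27), so these are called the libraries labelled RBM33 shRNA.

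The squamous identity of the line was checked with 10 markers. KRT5, KRT14, KRT17, KRT6A, TP63 and PKP1 are not listed in the per-library table, CDH1 lay between 0.381 and 4.20 CPM and EPCAM between 0.427 and 2.55 CPM, while the desmosome gene DSP lay between 170 and 215 CPM. The keratins KRT8 (56.5 to 96.7 CPM) and KRT18 (28.3 to 48.4 CPM) and the mesenchymal gene VIM (282 to 381 CPM) were detected, so the defining markers of squamous epithelium were largely absent. Summed over the list, the squamous markers reached 181 to 205 CPM in ALKBH5 shRNA libraries and 192 to 219 CPM in ALKBH5 scramble, and 175 to 216 CPM in libraries labelled RBM33 shRNA and 174 to 202 CPM in RBM33 scramble. That sum is mostly DSP, because CDH1, EPCAM and SFN (0.162 to 3.63 CPM), the other listed markers, were each at most 4.20 CPM. VIM was higher in ALKBH5 shRNA libraries by 0.32 (SE 0.06, limma adjusted p = 0.001) and in libraries labelled RBM33 shRNA by 0.20 (SE 0.06, adjusted p = 0.02), and KRT8 was higher in ALKBH5 shRNA libraries by 0.50 (SE 0.11, adjusted p = 0.0034). Fibroblast markers (6 of 7 listed) summed to 36.1 to 37.0 CPM in ALKBH5 shRNA libraries and 32.9 to 40.3 CPM in their scramble, and to 26.5 to 33.2 CPM in libraries labelled RBM33 shRNA and 33.6 to 38.8 CPM in their scramble, where COL3A1 was lower by 0.51 (log2 change -0.51, SE 0.18, limma adjusted p = 0.048). Leukocyte markers (3 of 6 listed) summed to at most 6.16 CPM and endothelial markers (2 of 5 listed) to at most 5.47 CPM in any library. The part of these markers in the results for the transporters was not tested. These are bulk libraries, in which fewer cells of a type and less RNA per cell cannot be told apart.

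Short sequences are shown here because peaks and motif matches described below refer to them. The transcript sequences come from RefSeq windows of assembly GRCh38.p14 that run from 250 bases before to 50 bases after a gene start, and 45 windows of 24 members were matched by symbol. Positions of the deposited peaks are on hg38, the UCSC name of GRCh38. The first pair lies under m6A peaks. GGACT, shown in capitals, is the best known core of the sites that the m6A methyltransferase modifies, and the SLC3A2 stretch lies in a peak of the ALKBH5 shRNA-2 table that is described with the m6A results; the SLC1A5 stretch is a whole peak of the RBM33 shRNA-2 table.
SLC3A2, chr11:62881717-62881745, plus strand: aagtaatgtgcaGGACTccttacatcagc
SLC1A5, chr19:46787486-46787535, minus strand: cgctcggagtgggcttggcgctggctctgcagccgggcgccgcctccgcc

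The windows reached 11 stretches of peak blocks of 7 members, and 1 of the 11 held GGACT on the transcript strand. Only the part of a block inside a window was searched, and a block reached by more than 1 window could count again. Among the first 50 transcript bases of all 35116 windows, 4.90% held GGACT. That share is of whole 50-base stretches and so is not in the same unit. The match is a description and no site was mapped at this resolution.

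The second set marks TGATGNAA, searched on both strands (as TTNCATCA on the other), the form of the composite element that ATF4 binds with C/EBP proteins. It was present in 6 of the 45 member windows, in SLC1A3, SLC1A4, SLC1A5, SLC38A1, SLC3A2 and SLC7A1, and in 1270 of all 35116 windows (3.62%). Of these 6 windows only that of SLC7A1 covers the listed 5′ end of its gene. Those of SLC1A4, SLC1A5, SLC38A1 and SLC3A2 lie inside the gene at other RefSeq starts, and that of SLC1A3 lies before the gene. The SLC3A2 window, for example, begins at chr11:62881449, while the gene is listed from chr11:62856102. In SLC3A2 and SLC7A1 the match began 37 and 7 bases after the RefSeq start, and the SLC3A2 match is part of the stretch shown above. The other 4 matches began before a RefSeq start and are given with 10 bases on each side and the match in capitals.
SLC1A3, chr5:36596358-36596385, plus strand: aggaaatgacTGATGCAAagcagggtta
SLC1A4, chr2:64989382-64989409, plus strand: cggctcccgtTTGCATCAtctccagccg
SLC1A5, chr19:46784894-46784921, minus strand: aggaagtggcTGATGCAAgctgtccagg
SLC38A1, chr12:46266503-46266530, minus strand: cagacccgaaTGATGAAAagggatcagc

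Levels were compared between members only per length, as normalized CPM per kilobase of the length given in the deposited table. SLC1A5 was the highest member, with a mean of 77.1 CPM per kilobase over the 15 libraries and group means from 71.9 to 87.2. SLC7A5 (48.4 CPM per kilobase), its heavy chain SLC3A2 (45.4), the cationic carrier SLC7A1 (36), SLC38A2 (31.4) and SLC38A1 (27.1) followed, and then SLC7A11 (15), SLC43A1 (11.4) and the glutamate carrier SLC1A3 (8.74). Of the 28 neighbouring pairs in this order, the libraries overlapped in 26 and were apart in 2: the lowest library of SLC1A5 had 67.5 CPM per kilobase and the highest of SLC7A5 54.9, and the lowest of SLC38A1 had 23.3 and the highest of SLC7A11 18.9.

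The middle of the order held SLC7A2 (6.26 CPM per kilobase), SLC7A6OS (5.96), SLC7A6 (5.04), SLC38A10 (3.78), SLC36A4 (2.67), SLC1A1 (2.09), SLC38A9 (2.07), SLC38A6 (1.74), SLC7A8 (1.70), SLC36A1 (1.67), SLC38A7 (1.62) and SLC1A4 (1.6). SLC38A3 (0.857), SLC43A2 (0.605), SLC7A7 (0.360), SLC38A5 (0.261) and SLC1A2 (0.0524) were lower but passed the filter of a mean of at least 1 CPM that a gene needed to be tested. SLC38A4, SLC3A1 and SLC7A14 had means of 0.651, 0.523 and 0.516 CPM, did not pass it, and lay near or below the 0.430 to 0.659 CPM that 3 reads amount to in these libraries. SLC3A1, the heavy chain of the renal cystine carrier, shares 44853 bases of its span with AC013717.1, a protein-coding gene on the same strand with a mean of 15.2 CPM, so its low value is uncertain. The other heavy chain, SLC3A2, averaged 234 CPM.

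**Figure D1:**
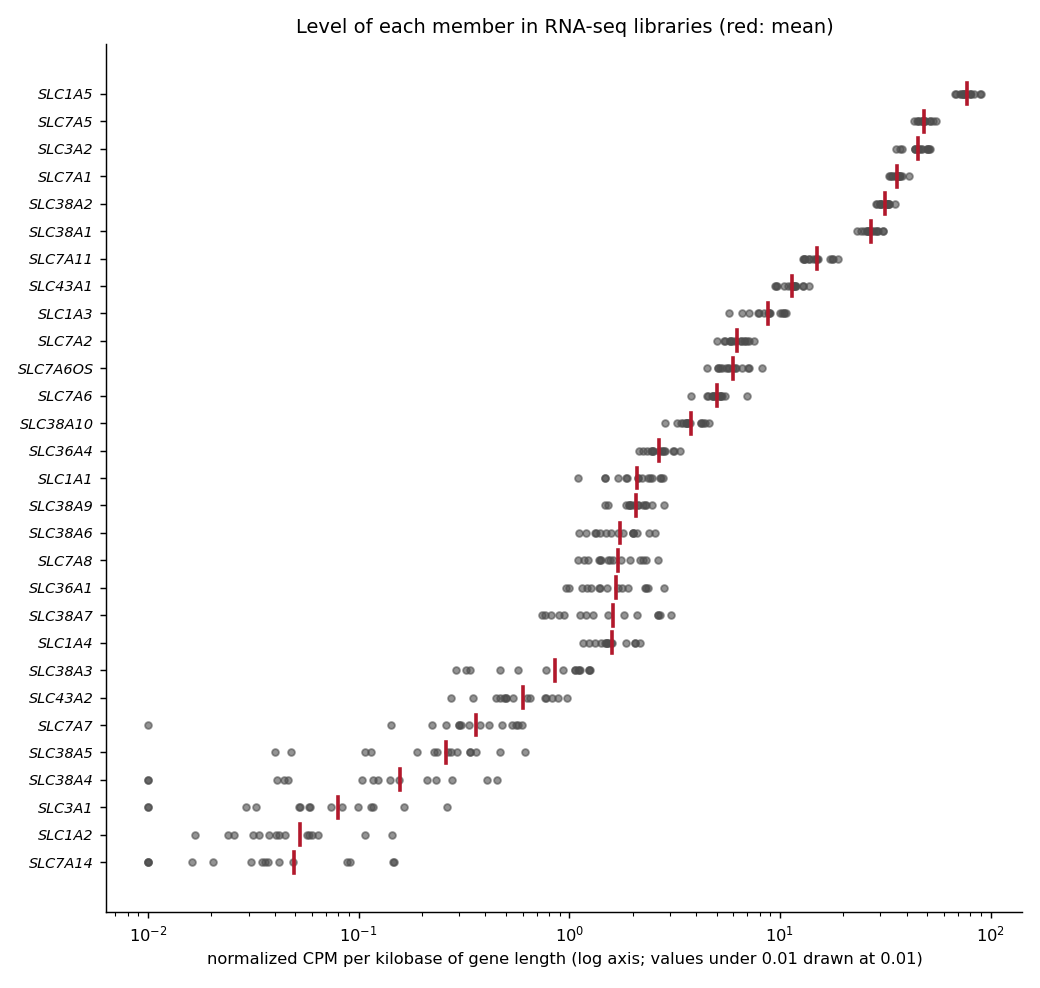
Level of each of the 29 members (rows) in normalized CPM per kilobase of gene length on a log axis, one grey point per library (15 libraries) and a red line at the mean. SLC1A5 lies apart at the top with a mean of 77.1, 5 further members lie between 27.1 and 48.4, and SLC3A1, SLC38A4 and SLC7A14, which did not pass the filter, are near the bottom.

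Against the scramble of their set, 3 of the 26 tested members were higher and 1 was lower in ALKBH5 shRNA libraries, 15.4% of them, where 15.1% of all 18227 tested genes were called (7.93% higher and 7.18% lower). The heavy chain SLC3A2, the glutamate carrier SLC1A3 and the lysosomal glutamine carrier SLC38A7 rose, and the cystine carrier SLC7A11 fell. In libraries labelled RBM33 shRNA, 5 members were higher and 1 was lower, 23.1% of the 26 beside 17.7% of all genes (8.50% higher and 9.25% lower). SLC38A7, SLC36A1, SLC43A2, SLC1A3 and SLC38A2 rose and SLC1A5 fell. Both combined shares were near those of all genes. By direction, the 5 higher members of 26 in libraries labelled RBM33 shRNA were above the 8.50% of all genes, and the 1 lower member was below the 9.25%. These counts were not tested against all genes and are not read as a result about the transporters as a group. Their median log2 changes of -0.06 and 0.01 lay beside medians of 0.01 and -0.01 over all genes. A gene was called at a limma adjusted p under 0.05, and changes are log2 differences of CPM + 1, a scale that understates the change of low genes.

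**Figure D2:**
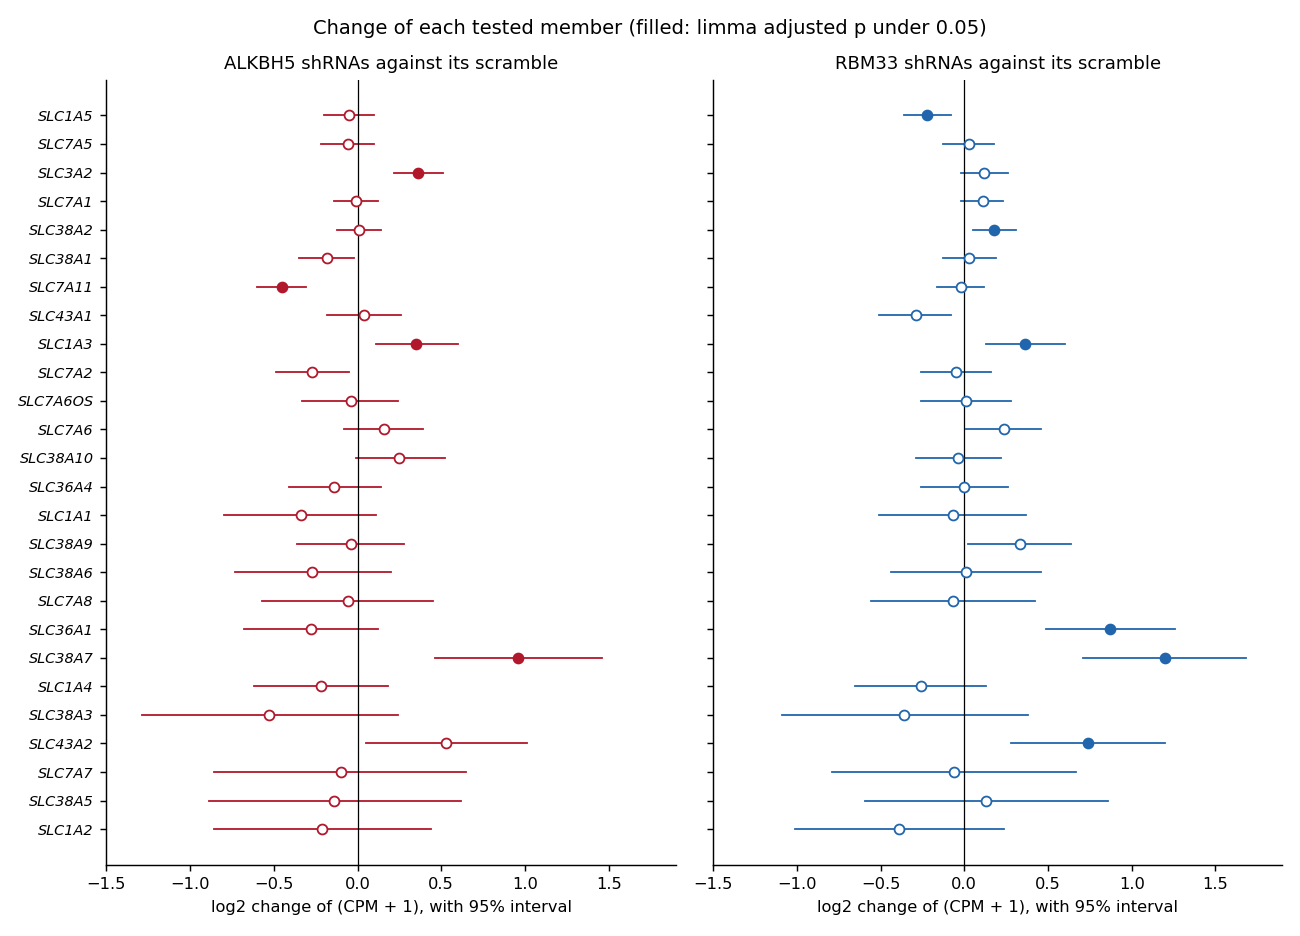
Log2 change of CPM + 1 with its 95% interval for the 26 tested members, ordered by level per kilobase, in ALKBH5 shRNA libraries against their scramble (left) and in libraries labelled RBM33 shRNA against their scramble (right). Filled points were called, 4 on the left and 6 on the right; SLC38A7 is filled in both panels, at 0.96 and 1.20, and most intervals cross 0.

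The single constructs gave as many calls or fewer. ALKBH5 shRNA-1 libraries had 4 called members (15.4%, beside 8.53% of all genes), the same genes as with both ALKBH5 constructs together. ALKBH5 shRNA-2 libraries had 2 (7.69%, beside 10.1% of all genes). RBM33 shRNA-1 libraries had 3 (11.5%, beside 10.9%) and RBM33 shRNA-2 libraries 3 (11.5%, beside 13.7%). With 1 library left out these counts ranged from 1 to 4, 1 to 3, 1 to 4 and 2 to 3. SLC3A2 and SLC7A11 were called with both ALKBH5 constructs, and SLC38A7 and SLC36A1 with both constructs labelled RBM33. Both constructs of a set were set against the same scramble libraries.

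SLC3A2, whose product CD98 is the heavy chain of the carriers encoded by SLC7A5, SLC7A11, SLC7A6, SLC7A7 and SLC7A8, had 261 and 237 CPM in ALKBH5 shRNA-1 and 225 and 258 CPM in ALKBH5 shRNA-2, against 183, 191 and 196 CPM in scramble. The groups did not overlap, and the log2 change was 0.36 (95% interval 0.22 to 0.51, limma adjusted p = 0.0011). In the libraries labelled RBM33 shRNA, SLC3A2 had 234 and 263 CPM with shRNA-1 and 242, 256 and 267 CPM with shRNA-2, against 225, 243 and 227 CPM in scramble, groups that overlapped (log2 change 0.12, interval -0.02 to 0.26, limma adjusted p = 0.26). The shRNA libraries of both sets lay at similar levels, while ALKBH5 scramble was lower than RBM33 scramble by 0.28 (SE 0.08, limma adjusted p = 0.045), and the interaction of both effects was 0.25 (SE 0.10, limma adjusted p = 0.21).

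SLC7A11, the cystine and glutamate exchanger that feeds glutathione synthesis, had 127 and 125 CPM in ALKBH5 shRNA-1 and 125 and 133 CPM in ALKBH5 shRNA-2, against 170, 172 and 182 CPM in scramble. It was lower in every shRNA library than in any scramble library, by 0.45 on the log2 scale (log2 change -0.45, interval -0.60 to -0.31, limma adjusted p = 0.00012). The libraries labelled RBM33 shRNA had 133 and 126 CPM with shRNA-1 and 144, 167 and 146 CPM with shRNA-2, against 139, 145 and 143 CPM in scramble, with a log2 change of -0.02 (interval -0.16 to 0.12, limma adjusted p = 0.85). For SLC7A11 the ALKBH5 effect minus the RBM33 effect was -0.43 (SE 0.10, limma adjusted p = 0.016), a call lost without ALKBH5 scramble replicate 3 (-0.40, limma adjusted p = 0.055) or RBM33 scramble replicate 1 (-0.41, adjusted p = 0.058). The test of the difference of effects called SLC36A1 and SLC7A11 among the members, 2 of 26, where it called 2.69% of all genes.

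SLC7A11 was also higher in ALKBH5 scramble than in RBM33 scramble, by 0.29 (SE 0.08, limma adjusted p = 0.037). Between both scramble groups 2 of the 26 members, SLC7A11 and SLC3A2, were called, where 2.48% of all genes were. Both calls were lost without any 1 of the 6 scramble libraries (limma adjusted p between 0.066 and 0.16 for SLC7A11 and between 0.084 and 0.21 for SLC3A2), and that of SLC3A2 also without RBM33 shRNA-2 replicate 3 (0.052). The changes of SLC3A2 and SLC7A11 in ALKBH5 shRNA libraries thus stand against a scramble group that itself differed from the other scramble group in the opposite direction for both genes. The part of that difference in the ALKBH5 results was not tested.

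Of the light chains, SLC7A5 had 245 and 231 CPM in ALKBH5 shRNA-1 and 205 and 230 CPM in ALKBH5 shRNA-2, against 226, 226 and 261 CPM in scramble (log2 change -0.06, interval -0.22 to 0.10, limma adjusted p = 0.66). It had 253 and 213 CPM with RBM33 shRNA-1 and 227, 246 and 216 CPM with RBM33 shRNA-2, against 228, 234 and 218 CPM in scramble (log2 change 0.03, interval -0.13 to 0.18, limma adjusted p = 0.84). The groups of the leucine carrier overlapped in both sets, while its heavy chain was higher in ALKBH5 shRNA libraries.

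SLC7A6, a light chain that exchanges cationic and neutral amino acids, had 52.8 and 39.4 CPM in ALKBH5 shRNA-1 and 34.8 and 39.5 CPM in ALKBH5 shRNA-2, against 37.9, 36 and 36.4 CPM in scramble, and 40.2 and 36.5 CPM with RBM33 shRNA-1 and 39.8, 38.9 and 41.8 CPM with RBM33 shRNA-2, against 37.0, 34.3 and 28.6 CPM in scramble. Its opposite-strand neighbour SLC7A6OS had 34.7 and 27.7 CPM in ALKBH5 shRNA-1 and 23.7 and 29.7 CPM in ALKBH5 shRNA-2, against 26.6, 26.6 and 36.8 CPM in scramble, and 27.3 and 28.8 CPM with RBM33 shRNA-1 and 37.4, 43.2 and 30.1 CPM with RBM33 shRNA-2, against 31.2, 32.3 and 31.9 CPM in scramble. Neither was called in either set, and the values of this pair are uncertain because no source used here gives the strand setting of the counting. The same holds for the other opposite-strand overlaps, such as SLC38A9 with DDX4 (0.527 CPM). SLC7A8 (LAT2), another light chain, had 9.17 and 12.9 CPM in ALKBH5 shRNA-1 and 7.07 and 8.29 CPM in ALKBH5 shRNA-2, against 13.9, 7.38 and 8.48 CPM in scramble. With RBM33 shRNA-1 it had 11.6 and 8.41 CPM and with RBM33 shRNA-2 6.59, 15.8 and 10.6 CPM, against 9.70, 13.4 and 9.37 CPM in scramble, so its libraries overlapped in both sets. The light chain SLC7A7 averaged 1.85 CPM and was listed at 0 in 1 library.

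The cationic carriers move arginine and lysine without a heavy chain. SLC7A1 (CAT1) had 287 and 290 CPM in ALKBH5 shRNA-1 and 262 and 254 CPM in ALKBH5 shRNA-2, against 280, 269 and 277 CPM in scramble (log2 change -0.01, interval -0.14 to 0.12, limma adjusted p = 0.94), and 314 and 272 CPM with RBM33 shRNA-1 and 284, 280 and 282 CPM with RBM33 shRNA-2, against 281, 257 and 263 CPM in scramble (log2 change 0.11, interval -0.02 to 0.23, limma adjusted p = 0.26). The intervals of SLC7A1 lie within 0.23 of 0 in both sets. SLC7A2 (CAT2) had 46.3 and 48.9 CPM in ALKBH5 shRNA-1 and 43 and 39.5 CPM in ALKBH5 shRNA-2, against 53.3, 56.4 and 51.5 CPM in scramble (log2 change -0.27, limma adjusted p = 0.087). Every ALKBH5 shRNA library of SLC7A2 lay below every scramble library, without passing the threshold; with RBM33 shRNA-1 it had 59.9 and 43.6 CPM and with RBM33 shRNA-2 51.9, 47.2 and 45.9 CPM, against 45.6, 55.3 and 53.8 CPM in scramble.

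Among the carriers of glutamine and small neutral amino acids, SLC1A5 had 240 and 247 CPM with RBM33 shRNA-1 and 247, 248 and 270 CPM with RBM33 shRNA-2, against 296, 277 and 299 CPM in scramble. These groups did not overlap, and SLC1A5 fell by 0.22 on the log2 scale (log2 change -0.22, interval -0.36 to -0.08, limma adjusted p = 0.03). In the ALKBH5 set it had 254 and 225 CPM with shRNA-1 and 227 and 268 CPM with shRNA-2, against 240, 265 and 248 CPM in scramble (log2 change -0.05, limma adjusted p = 0.73). The RBM33 call was lost without RBM33 shRNA-1 replicate 1 (-0.21, adjusted p = 0.078), RBM33 shRNA-2 replicate 1 (-0.21, adjusted p = 0.05, just above the threshold), RBM33 scramble replicate 1 (-0.21, adjusted p = 0.11) or RBM33 scramble replicate 3 (-0.20, adjusted p = 0.11), and after quantile normalization or removal of a gene length trend (limma adjusted p = 0.069 and 0.11).

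SLC38A2, the glutamine carrier that is induced when amino acids are scarce, had 209 and 229 CPM with RBM33 shRNA-1 and 215, 210 and 212 CPM with RBM33 shRNA-2, against 187, 189 and 194 CPM in scramble. All 5 libraries labelled RBM33 shRNA were above the 3 scramble libraries, by a log2 change of 0.18 (interval 0.05 to 0.31, limma adjusted p = 0.044). The call was lost without ALKBH5 scramble replicate 2, RBM33 shRNA-1 replicate 2, RBM33 shRNA-2 replicate 1 or 3, or any of the 3 RBM33 scramble libraries, with log2 changes between 0.15 and 0.20 and limma adjusted p between 0.052 and 0.15. It was also lost with no filter on low values, with a gene length trend removed and in a fit on the RBM33 set alone (limma adjusted p = 0.055, 0.07 and 0.053). In the ALKBH5 set SLC38A2 had 209 and 213 CPM with shRNA-1 and 195 and 198 CPM with shRNA-2, against 216, 197 and 195 CPM in scramble (log2 change 0.01, limma adjusted p = 0.95).

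SLC38A1 had 258 and 251 CPM in ALKBH5 shRNA-1 and 243 and 263 CPM in ALKBH5 shRNA-2, against 309, 289 and 268 CPM in scramble, with no overlap and a log2 change of -0.18 (limma adjusted p = 0.13). With RBM33 shRNA-1 it had 307 and 264 CPM and with RBM33 shRNA-2 291, 286 and 233 CPM, against 260, 279 and 275 CPM in scramble. SLC1A4 (ASCT1), a carrier of serine, alanine and cysteine, had 8.03 and 11.1 CPM in ALKBH5 shRNA-1 and 10.3 and 9.83 CPM in ALKBH5 shRNA-2, against 10.6, 14.1 and 10.2 CPM in scramble, and 10.5 and 9.17 CPM with RBM33 shRNA-1 and 11.0, 14.3 and 8.60 CPM with RBM33 shRNA-2, against 10.5, 12.9 and 15 CPM in scramble. Neither gene was called in either set, and the SLC1A4 libraries overlapped in both.

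SLC1A3 (EAAT1), a carrier of glutamate and aspartate, had 65.8 and 63.6 CPM in ALKBH5 shRNA-1 and 49.9 and 52.6 CPM in ALKBH5 shRNA-2, against 56.0, 44.9 and 35.8 CPM in scramble, and the groups overlapped (log2 change 0.35, interval 0.11 to 0.60, limma adjusted p = 0.046). With RBM33 shRNA-1 it had 66.0 and 67.2 CPM and with RBM33 shRNA-2 62.9, 55.5 and 55.7 CPM, against 49.1, 41.2 and 55.0 CPM in scramble, where the libraries were apart by a small margin (log2 change 0.36, interval 0.13 to 0.60, limma adjusted p = 0.03). In both sets the libraries of shRNA-1 were the highest.

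Both SLC1A3 calls lay close to the threshold. The ALKBH5 call was lost without any of the 4 ALKBH5 shRNA libraries, ALKBH5 scramble replicate 2 or 3, either RBM33 shRNA-1 library, RBM33 shRNA-2 replicate 3 or RBM33 scramble replicate 1, 10 of 15 cases, with limma adjusted p between 0.052 and 0.32 a change of 0.20 without ALKBH5 scramble replicate 3, and changes between 0.33 and 0.37 in the other 9 cases. edgeR and DESeq2 on whole reads and a fit on the ALKBH5 set alone also gave adjusted p of 0.062, 0.058 and 0.057. The RBM33 call was lost without either RBM33 shRNA-1 library, RBM33 shRNA-2 replicate 1 or RBM33 scramble replicate 1 or 2, with limma adjusted p between 0.054 and 0.21 a change of 0.25 without RBM33 scramble replicate 2, and changes between 0.33 and 0.38 in the other 4 cases. SLC1A1 (EAAT3), another glutamate carrier, lay between 4.38 and 11.1 CPM and was not called.

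At the lysosome, SLC38A7, which exports glutamine, was the member with the largest change in both sets. It had 17.5 and 10.2 CPM in ALKBH5 shRNA-1 and 8.60 and 12.1 CPM in ALKBH5 shRNA-2, against 4.97, 6.30 and 5.47 CPM in scramble (log2 change 0.96, interval 0.46 to 1.46, limma adjusted p = 0.0089). With RBM33 shRNA-1 it had 17.5 and 18.0 CPM and with RBM33 shRNA-2 20.2, 13.9 and 8.01 CPM, against 5.98, 7.44 and 5.11 CPM in scramble (log2 change 1.20, interval 0.71 to 1.68, limma adjusted p = 0.00082). In both sets all shRNA libraries were above all scramble libraries. The ALKBH5 call was lost without ALKBH5 shRNA-1 replicate 1, the highest of its group (log2 change 0.78, limma adjusted p = 0.058), and the RBM33 call held without each library. In the authors' deposited edgeR table SLC38A7 changed by 1.32 for ALKBH5 shRNA-1 (adjusted p = 0.0043) and by 0.89 for ALKBH5 shRNA-2 (adjusted p = 0.062), and in the authors' deposited table for RBM33 shRNA-1 by 1.52 (adjusted p = 9.7e-05) and for RBM33 shRNA-2 by 1.17 (adjusted p = 0.0048).

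SLC36A1 (PAT1), a proton-coupled carrier of small amino acids on lysosomes, had 16.2 and 16.0 CPM with RBM33 shRNA-1 and 19.6, 16.4 and 13.3 CPM with RBM33 shRNA-2, against 10.5, 6.95 and 8.01 CPM in scramble. The groups were apart, and the log2 change of 0.87 (interval 0.49 to 1.26, limma adjusted p = 0.0019) held without each library. In the ALKBH5 set SLC36A1 had 8.89 and 9.66 CPM with shRNA-1 and 9.74 and 6.74 CPM with shRNA-2, against 11.8, 8.45 and 12.4 CPM in scramble, which overlapped (log2 change -0.28, interval -0.68 to 0.12, limma adjusted p = 0.37). For SLC36A1 the ALKBH5 effect minus the RBM33 effect was -1.16 (SE 0.27, limma adjusted p = 0.018), a call lost without ALKBH5 scramble replicate 1 or 3 or RBM33 scramble replicate 2 (limma adjusted p = 0.056, 0.062 and 0.069).

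SLC38A9, the lysosomal arginine sensor and carrier upstream of mTORC1, had 17.1 and 17.3 CPM in ALKBH5 shRNA-1 and 18.7 and 13.5 CPM in ALKBH5 shRNA-2, against 17.0, 16.3 and 17.9 CPM in scramble (log2 change -0.04, interval -0.36 to 0.28). With RBM33 shRNA-1 it had 21.7 and 18.7 CPM and with RBM33 shRNA-2 20.4, 24.8 and 20.3 CPM, against 13.1, 19.7 and 17.2 CPM in scramble (log2 change 0.33, interval 0.02 to 0.64, limma adjusted p = 0.13). It was not called in either set. SLC36A4, its family's second tested member, lay between 20.8 and 32.7 CPM over all libraries and was not called. The remaining tested members lay between 5.73 and 13.2 CPM (SLC38A6), 1.15 and 4.94 CPM (SLC38A3), 0.381 and 3.28 CPM (SLC1A2) and 0.162 and 2.48 CPM (SLC38A5), and none of these 4 was called in either set.

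**Figure D3:**
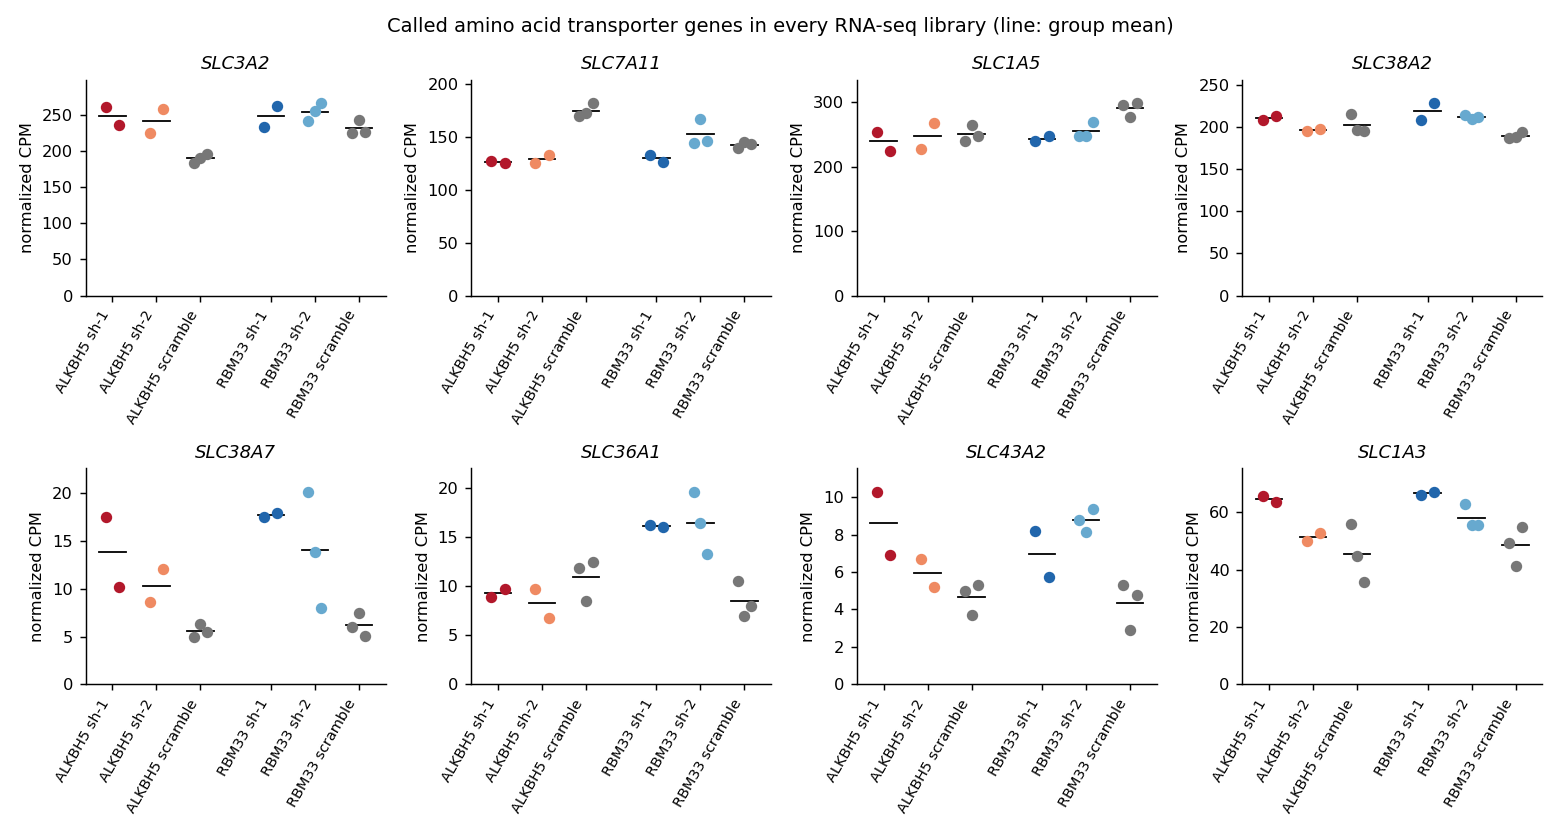
Normalized CPM (vertical axes, from 0) of the 8 called members in every RNA-seq library by group, one point per library and a line at the group mean; each shRNA group stands left of its scramble. SLC7A11 lies at 125 to 133 CPM in ALKBH5 shRNA libraries, below the 170 to 182 CPM of their scramble, SLC36A1 is highest, at 13.3 to 19.6 CPM, in libraries labelled RBM33 shRNA, and SLC38A7 is above scramble in both sets.

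The SLC43A carriers move branched-chain and other large neutral amino acids without sodium. SLC43A2 (LAT4) had 8.20 and 5.73 CPM with RBM33 shRNA-1 and 8.79, 8.12 and 9.38 CPM with RBM33 shRNA-2, against 5.33, 2.91 and 4.77 CPM in scramble, apart in all libraries (log2 change 0.74, interval 0.28 to 1.20, limma adjusted p = 0.023). That call was lost without RBM33 shRNA-1 replicate 1 (0.63, limma adjusted p = 0.093) or RBM33 scramble replicate 2 (0.53, limma adjusted p = 0.16). In the ALKBH5 set SLC43A2 had 10.3 and 6.93 CPM with shRNA-1 and 6.69 and 5.20 CPM with shRNA-2, against 4.97, 3.69 and 5.28 CPM in scramble, which overlapped (log2 change 0.53, limma adjusted p = 0.13).

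SLC43A1 (LAT3) had 34.3 and 41.6 CPM with RBM33 shRNA-1 and 39.8, 34.0 and 38.5 CPM with RBM33 shRNA-2, against 48.3, 45.0 and 45.7 CPM in scramble. All of its libraries labelled RBM33 shRNA were below scramble, and its log2 change of -0.29 (interval -0.51 to -0.08) had a limma adjusted p of 0.05, just above the threshold; it was called by edgeR on whole reads (adjusted p = 0.049) and without ALKBH5 scramble replicate 2, RBM33 shRNA-1 replicate 2 or RBM33 shRNA-2 replicate 1 (limma adjusted p = 0.042, 0.031 and 0.045). In the ALKBH5 set it had 40.7 and 41.4 CPM with shRNA-1 and 37.1 and 40.8 CPM with shRNA-2, against 41.6, 33.3 and 41.8 CPM in scramble, which overlapped. SLC38A10, a widely expressed member of the SLC38 family, had 35.0 and 27.5 CPM in ALKBH5 shRNA-1 and 26.7 and 33.9 CPM in ALKBH5 shRNA-2, against 22.6, 25.8 and 28.5 CPM in scramble, and 29.7 and 28.7 CPM with RBM33 shRNA-1 and 33.4, 33.5 and 28.3 CPM with RBM33 shRNA-2, against 29.1, 36.4 and 28.6 CPM in scramble, overlapping in both sets.

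Genes that act with the carriers were counted in 4 lists. Of the 32 tested genes of ATF4 and the amino acid response, 3 rose and 11 fell in ALKBH5 shRNA libraries, with a median log2 change of -0.21, and 1 rose and 17 fell in libraries labelled RBM33 shRNA, with a median of -0.34. In all genes the called shares given above were 7.93% higher and 7.18% lower, and 8.50% higher and 9.25% lower. The largest fall of the list in both sets was that of DDIT4, an inhibitor of mTORC1 signalling (log2 change -0.84 with ALKBH5 shRNAs and -1.04 with those labelled RBM33, SE 0.07 in both, limma adjusted p = 1.4e-08 and 7.8e-11). ASNS, the asparagine synthetase, also fell in both sets (-0.67 and -0.88, SE 0.07 in both, limma adjusted p = 1.1e-06 and 6.2e-09). DDIT4 lay between 157 and 174 CPM in ALKBH5 shRNA libraries, against 294 to 313 CPM in scramble.

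ATF4 itself was higher in ALKBH5 shRNA libraries, at 551 to 578 CPM, against 468 to 503 CPM in scramble (log2 change 0.21, SE 0.06, limma adjusted p = 0.026). In libraries labelled RBM33 shRNA it was not called. ATF4 is given although its change is not among the largest of the list, and it was chosen after its values were seen. PPP1R15A, which lowers eIF2alpha phosphorylation, rose in both sets (0.65, SE 0.09, limma adjusted p = 2.2e-05, and 0.51, SE 0.09, adjusted p = 0.00017). Of the 6 members with a TGATGNAA match, SLC3A2 and SLC1A3 were called higher with ALKBH5 shRNAs. With those labelled RBM33, SLC1A3 was called higher and SLC1A5 lower, and SLC1A4, SLC38A1 and SLC7A1 were not called in either set. A match in these short windows does not show binding by ATF4, and elements outside the windows were not searched. The part of ATF4 in the changes of the members was not tested.

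Of 23 tested amino acid carriers of other families, 1 rose (SLC66A1, a lysosomal exporter of cationic amino acids, 0.87, SE 0.24, limma adjusted p = 0.018) and 1 fell (SLC6A6, the taurine carrier, -0.39, SE 0.12, adjusted p = 0.027) in ALKBH5 shRNA libraries. Only SFXN2, a mitochondrial sideroflexin, was called in libraries labelled RBM33 shRNA (-0.40, SE 0.10, limma adjusted p = 0.006). The medians of this list were -0.10 and 0.00. In all genes the called shares were 7.93% higher and 7.18% lower with ALKBH5 shRNAs, and 8.50% higher and 9.25% lower with those labelled RBM33.

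Of 30 tested genes of amino acid sensing upstream of mTORC1, 8 rose and 2 fell with ALKBH5 shRNAs (median 0.11), and 4 rose and 5 fell in libraries labelled RBM33 shRNA (median 0.13). Over all genes 7.93% were called higher and 7.18% lower with ALKBH5 shRNAs, and 8.50% higher and 9.25% lower with those labelled RBM33. RPTOR, the mTORC1 scaffold, rose in both sets (0.57, SE 0.09, limma adjusted p = 0.00017, and 0.77, SE 0.09, adjusted p = 1.4e-06). LAMTOR4, a subunit of the Ragulator that holds the Rag GTPases at the lysosome, rose by 0.50 with ALKBH5 shRNAs (SE 0.13, limma adjusted p = 0.01), while it had the largest fall of the list with those labelled RBM33 (-0.46, SE 0.12, limma adjusted p = 0.012). Of 22 tested genes of a list on the use of glutamine and cystine, 5 rose and 6 fell with ALKBH5 shRNAs (median -0.14). With those labelled RBM33, 4 rose and 8 fell (median -0.17). The shares over all genes are those given for the sensing list. The list is broader than its name and also holds genes that use neither, such as GOT1. GOT1, the cytosolic aspartate aminotransferase, changed by -0.75 with shRNAs labelled RBM33 (SE 0.13, limma adjusted p = 0.0002). GFPT1, which takes glutamine into the hexosamine pathway, fell in both sets (log2 change -0.64, SE 0.07, limma adjusted p = 1.1e-06, and -0.30, SE 0.07, adjusted p = 0.0032). PFAS, a purine synthesis enzyme that uses glutamine, rose by 0.56 (SE 0.09, limma adjusted p = 0.00026) and 0.58 (SE 0.09, adjusted p = 6.9e-05).

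**Figure D4:**
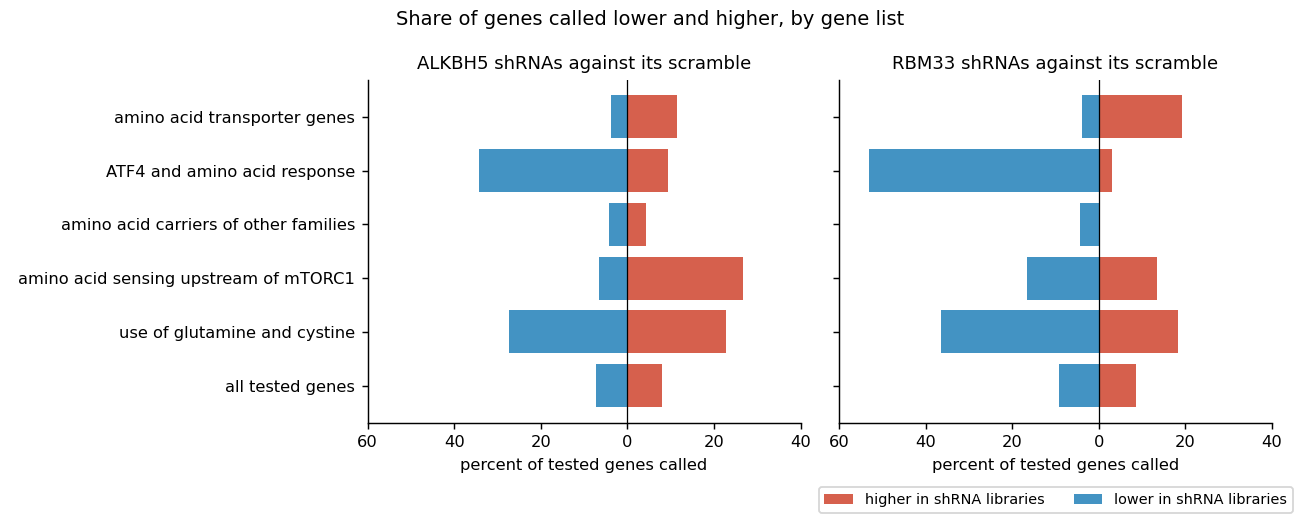
Percent of tested genes called higher (right of 0) and lower (left of 0) in ALKBH5 shRNA libraries (left panel) and in libraries labelled RBM33 shRNA (right panel) against their scramble, for the transporters, 4 lists and all 18227 tested genes. The list of ATF4 and the amino acid response has the longest bars to the left, 11 and 17 of 32 genes, while the transporters have 1 called lower gene in each set.

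The m6A data come as the authors' comparisons of each shRNA with its scramble and give no value per library. The authors' deposited effect tables list peaks, mostly bins of 50 bases or runs of them, with an effect that is on the natural log scale by its values, and hold no effect smaller than 0.50 in size. Of the members, 17 had a peak in at least 1 table, with 146 peaks in all, of which 26 span more than 1 block. Peaks of a gene are often neighbouring bins of the same transcript and are not independent, and both tables of a set share their scramble libraries.

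In the authors' deposited table for ALKBH5 shRNA-1, 38 peaks of 12 members were listed, 24 with a higher and 14 with a lower effect; 64.7% of the 13120 peaks of that table were higher. The ALKBH5 shRNA-2 table of the authors listed 66 member peaks of 16 members, 52 higher and 14 lower, beside 72.5% higher among 19251 peaks. All 20 member peaks (7 members) in the authors' deposited table for RBM33 shRNA-1 and all 22 (6 members) in that for RBM33 shRNA-2 were higher, where 87.6% of 2070 and 87.5% of 3268 peaks were. The members thus had the direction that most peaks of each table had. The 12, 16, 7 and 6 of 29 members with a peak stand beside 6338, 7388, 1537 and 2219 genes with a peak in the same comparisons. RNA levels were listed for 21797 genes, and no such count over all genes was made for the 17 members. These counts were not weighed against RNA level and are not read as a result about the transporters.

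SLC7A1 had the most peaks, 37 over the 4 authors' deposited tables, 33 higher and 4 lower, with effects between -1.08 and 3.48. The 4 members with the most peaks, SLC7A1, SLC7A5, SLC1A5 and SLC3A2, were also the 4 highest per kilobase in RNA level. SLC38A1, with a mean of 27.1 CPM per kilobase, had 3 peaks. Whether the number of peaks follows the RNA level was not tested. The largest was at chr13:29530629-29532839, a peak of 2 blocks and 100 covered bases in the ALKBH5 shRNA-2 table (effect 3.48, p = 1.5e-09 in the authors' deposited table). Of the 37, 26 lay within 6 kilobases of the 3′ end of the gene, in genomic distance. That limit was arbitrary and no such count was made over all peaks, so it is not read as a preference for the 3′ end. The bin at chr13:29511407-29511456 had effects of 1.49 in the authors' deposited ALKBH5 shRNA-1 table and 1.26 in the ALKBH5 shRNA-2 table, and chr13:29511257-29511306 had 0.91 and 0.87 in the RBM33 shRNA-1 and shRNA-2 tables. SLC7A1 RNA was not called in either set, as given above.

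SLC7A5 had 34 peaks in the authors' deposited tables, 28 higher and 6 lower, between -0.81 and 2.98. The highest, 2.98 in the authors' deposited ALKBH5 shRNA-2 table, was at chr16:87834504-87834553, 4481 bases from the 3′ end of the gene. Of the 6 lower effects, 3 lay near the 5′ end and 3 near the 3′ end. Near the 5′ end, chr16:87869245-87869294, 213 bases from it, had -0.81 in the authors' deposited ALKBH5 shRNA-1 table and -0.68 in the ALKBH5 shRNA-2 table. Near the 3′ end, chr16:87832466-87832515, 2443 bases from it, had -0.59 and -0.68 in the authors' deposited ALKBH5 shRNA-1 and ALKBH5 shRNA-2 tables, and chr16:87831066-87831115 had -0.76 in the ALKBH5 shRNA-1 table. The bin 13 bases from the 5′ end had 0.57 in the ALKBH5 shRNA-1 table of the authors, so effects of both signs stood close to each other.

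SLC1A5 had 22 peaks, 18 higher and 4 lower, between -0.77 and 2.03 in the authors' deposited tables. The sequence of one, chr19:46787486-46787535 with an effect of 0.64 in the authors' deposited RBM33 shRNA-2 table, is the 50-base stretch printed at the start. SLC3A2 had 13 peaks, 11 higher and 2 lower, between -0.89 and 2.00. The highest, in the authors' deposited ALKBH5 shRNA-2 table, has 2 blocks and 150 covered bases between chr11:62881370 and 62881770, and its second block holds the GGACT shown above.

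**Figure D5:**
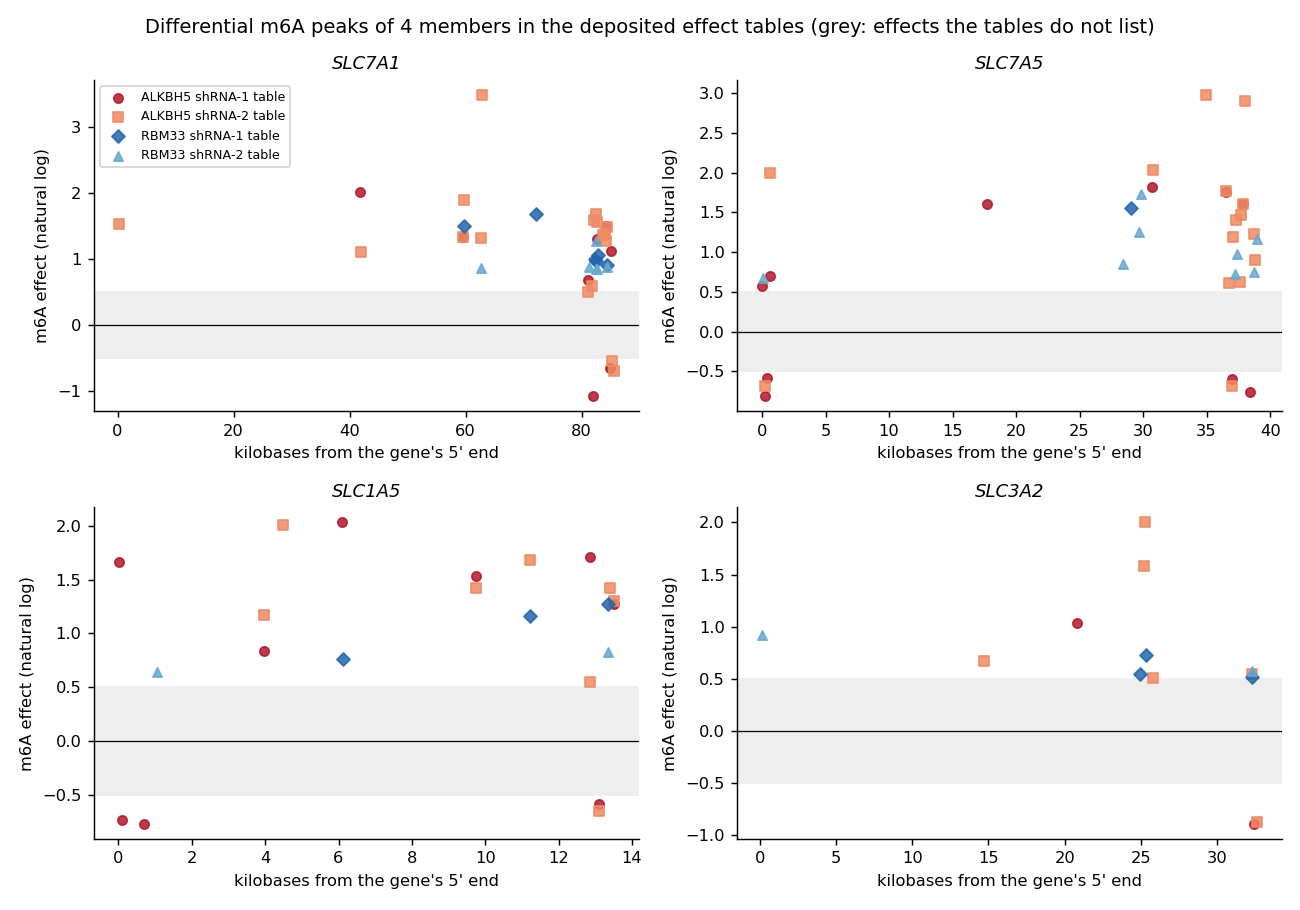
Effects (natural log, vertical axes) of the deposited differential m6A peaks of SLC7A1, SLC7A5, SLC1A5 and SLC3A2 against the distance of the peak from the 5′ end of the gene in kilobases; colour and shape give the shRNA of the table, and the grey band marks effects the tables do not hold. Most of the 37, 34, 22 and 13 peaks lie above the band, and the lower ones come from the ALKBH5 tables.

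SLC38A10 had 12 peaks, 11 higher and 1 lower, between -0.97 and 1.49 in the authors' deposited tables. SLC38A7, the member whose RNA changed most, had 2, both higher: 1.76 at chr16:58684069-58684118 in the authors' deposited ALKBH5 shRNA-1 table and 2.83 at chr16:58671055-58671104 in the RBM33 shRNA-1 table. SLC7A11 had 3: -0.77 and 1.34 in the authors' deposited ALKBH5 shRNA-2 table and 1.49 in the RBM33 shRNA-1 table, that one 400 bases from its 5′ end. SLC36A1 had 1 (-0.61, ALKBH5 shRNA-2) and SLC43A2 and SLC38A9 had none listed in the authors' deposited tables. The other members with peaks were SLC38A2 (5), SLC7A6OS (4), SLC38A1 (3), SLC43A1 (3), SLC1A3 (2), SLC7A8 (2), SLC1A4 (1), SLC7A2 (1) and SLC7A6 (1). The peaks of 4 members had 1 sign in the authors' deposited ALKBH5 shRNA-1 table and the other sign in the ALKBH5 shRNA-2 table: SLC1A3 (-1.23 and 1.20), SLC7A8 (0.70 and -0.50), SLC43A1 (-0.90, and 1.27 and 2.1) and SLC38A10 (-0.97, and 0.63 to 1.46), for SLC7A8 in the same bin.

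A second kind of deposited table gives the share of methylated signal of a peak in both groups and lists peaks up to an adjusted p of 0.10. It held 4 member peaks among 721 for ALKBH5 shRNA-1, 1 among 182 for ALKBH5 shRNA-2, 0 among 20 for RBM33 shRNA-1 and 1 among 18 for RBM33 shRNA-2. In the authors' deposited table for ALKBH5 shRNA-1, the SLC3A2 peak between chr11:62876878 and 62881169 had a share of 0.492 with the shRNA and 0.273 in scramble (the authors' adjusted p = 0.0061). SLC7A1 at chr13:29510707-29510906 went the other way, with 0.563 with the shRNA and 0.760 in scramble (the authors' adjusted p = 0.0006 in their deposited table).

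SLC7A5 had 1 peak in each direction in the authors' deposited ALKBH5 shRNA-1 table: 0.551 with the shRNA and 0.334 in scramble at chr16:87869395-87869444 near its 5′ end (adjusted p = 0.012), and 0.671 with the shRNA and 0.794 in scramble at chr16:87832316-87832615 (adjusted p = 0.052). The SLC1A5 peaks at chr19:46787586-46788535 for ALKBH5 shRNA-2 and chr19:46787686-46788585 for RBM33 shRNA-2 had shares of 0.866 with the shRNA and 0.803 in scramble, and of 0.883 with the shRNA and 0.830 in scramble (adjusted p = 0.081 and 0.083 in the authors' deposited tables). The SLC7A1 region with the lower share spans the bin chr13:29510807-29510856, which also had a negative effect, -0.66, in the authors' deposited ALKBH5 shRNA-1 effect table, while 6 of the 8 SLC7A1 peaks of that table were higher.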

How the data were processed

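RNA-seq of inputs and m6A-seq were made from UM-SCC-1 cells with a stranded total RNA kit. Per the submitters' processing notes, cutadapt 1.18, HISAT2 2.1.0, featureCounts of Subread 1.6.4 and edgeR 3.24.3 were used with hg38. The deposited per-library values are a normalized CPM signal with a gene length column (unit other); whole reads could be recovered from 100% of values within 0.1 read, and 3 reads amount to 0.430 to 0.659 CPM. The deposited m6A tables hold natural log effects with p-values, and fractions of methylated signal with log2 ratios and adjusted p-values (no source used here gives the peak caller). The deposited edgeR tables hold log2 changes. The 95% intervals use limma's degrees of freedom. Of 18 labelled RNA-seq libraries 15 were used and 3 were not analysed here.

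The main test was limma 3.58.1 in R 4.3.3 on log2(CPM + 1) with its trend option, in 1 fit of 6 group means over genes with a mean of at least 1, with Benjamini-Hochberg adjustment over all 18227 and a threshold of 0.05. Alternatives were a pseudocount of 0.5, no filter, edgeR 4.0.16 and DESeq2 1.42.0 on the recovered reads, quantile normalization, removal of a gene length trend, a fit on the set alone, a replicate block, and leaving out each library. The tests were tried on simulated data. Libraries of 1 group were further apart than counting noise (chi-square per degree of freedom 2.90 to 8.04). The members and lists were chosen with earlier results of these data known. Values in every library are given for called members, members with a peak and 7 members fixed in the design. At most 4 genes of a list are described above, and they are not always those with the largest called changes. Those left out there include NUPR1 (0.78), GLS2 (1.08, at most 3.82 CPM) and SESN3 (-0.51) with ALKBH5 shRNAs. With shRNAs labelled RBM33 they include CHAC1 (-1.0). The DESeq2-form deposited tables are not printed from.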

Additional observations from a re-analysis of the deposited data

Results flagged for a closer look

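The effects of both sets differed for 2 members by the test of the difference itself. For SLC36A1 the ALKBH5 effect minus the RBM33 effect was -1.16 (SE 0.27, limma adjusted p = 0.018): the log2 change was -0.28 with ALKBH5 shRNAs and 0.87 in libraries labelled RBM33 shRNA. The call was lost without ALKBH5 scramble replicate 1 (-1.09, limma adjusted p = 0.056), ALKBH5 scramble replicate 3 (-1.06, adjusted p = 0.062) or RBM33 scramble replicate 2 (-1.04, adjusted p = 0.069).

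For SLC7A11 the difference was -0.43 (SE 0.10, limma adjusted p = 0.016), with a log2 change of -0.45 for ALKBH5 shRNAs and -0.02 in libraries labelled RBM33 shRNA. It was lost without ALKBH5 scramble replicate 3 (-0.40, limma adjusted p = 0.055) or RBM33 scramble replicate 1 (-0.41, adjusted p = 0.058) and with a gene length trend removed (-0.33, adjusted p = 0.095). SLC7A11 was higher in ALKBH5 scramble than in RBM33 scramble by 0.29 (limma adjusted p = 0.037), and the part of that gap in the difference was not tested. For SLC36A1 the scramble groups differed by 0.33 (limma adjusted p = 0.51).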

How the results depend on the processing

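Of 331 recomputed log2 changes of named members under other settings, 307 kept direction and side of the threshold, 19 lost and 1 gained the call, and 4 changed sign. With 1 library left out, 560 of 630 kept both, 47 lost and 3 gained the call, and 20 changed sign. No sign change touched a called value (the members concerned had changes of at most 0.07 in size), and none was called after it. With the gene length trend removed they were SLC38A9 (0.01) and SLC7A1 (0.03) for ALKBH5 shRNAs and SLC38A1 (-0.03) for RBM33 shRNAs, and with the replicate block SLC7A6OS (-0.02) for RBM33 shRNAs. The members that changed sign with 1 library left out ranged, for ALKBH5 shRNAs, from -0.10 to 0.01 (SLC1A5), -0.02 to 0.06 (SLC38A2), -0.15 to 0.07 (SLC38A9), -0.06 to 0.10 (SLC43A1), -0.10 to 0.01 (SLC7A5), -0.12 to 0.11 (SLC7A6OS) and -0.23 to 0.19 (SLC7A8). For RBM33 shRNAs they ranged from -0.03 to 0.08 (SLC38A1), -0.09 to 0.07 (SLC38A10), -0.16 to 0.06 (SLC7A2), -0.03 to 0.09 (SLC7A5), -0.05 to 0.08 (SLC7A6OS) and -0.21 to 0.08 (SLC7A8). Leaving out each library gave 2 to 4 called members for ALKBH5 shRNAs and 3 to 6 for RBM33 shRNAs, 1 to 4 for ALKBH5 shRNA-1, 1 to 3 for ALKBH5 shRNA-2, 1 to 4 for RBM33 shRNA-1, 2 to 3 for RBM33 shRNA-2, 0 to 2 for the difference of effects and 0 to 2 between scramble groups. The difference of effects called 1 member with DESeq2, which gave no adjusted p for SLC36A1, and 1 with a gene length trend removed. Between scramble groups 1 member was called without a filter, with edgeR and after quantile normalization, and 0 with the gene length trend removed or with the replicate block; the cause was not tested. No label says that the replicate numbers pair the libraries. Correlations of same-numbered libraries, taken on deviations from group means, lay between -0.08 and 0.07. In groups of 2 libraries these deviations mirror each other, so the correlations cannot decide whether a culture or day was shared. With the replicate block 3 members were called for ALKBH5 shRNAs, without SLC1A3 (0.32, limma adjusted p = 0.076), and 4 for RBM33 shRNAs, without SLC1A5 (-0.21, adjusted p = 0.062) and SLC38A2 (0.19, adjusted p = 0.069). Groups of 2 or 3 libraries, low counts of members such as SLC38A5 and m6A values without libraries limit what could be seen.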
